A study of Rattus norvegicus with 12 samples.

Results

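Myh6 and Myh7, the alpha and beta heavy chains of cardiac myosin, were followed in RNA from cultured heart muscle cells of newborn rats. The pair was taken from the deposited gene count table by the Ensembl identifiers ENSRNOG00000025757 (Myh6) and ENSRNOG00000016983 (Myh7), 2 of its 32883 genes, and both were among the 10491 genes tested. The cells were ventricular cardiomyocytes of Wistar rats, aged 1 to 2 days by the protocol and 2 days by the sample label, isolated with trypsin and a Percoll gradient. Some cultures received phenylephrine (PE), an alpha-adrenergic agonist that makes cardiomyocytes hypertrophy, for 24 h, and the others a mock treatment. Cpeb4, which binds cytoplasmic polyadenylation elements near the ends of mRNAs, was precipitated with an antibody, and the RNA that came with it (IP) was sequenced beside total RNA (input). The 4 groups were IP of PE cells, IP of mock cells, input of PE cells and input of mock cells, with 3 libraries each. The labels give 1 strain and no genetic change for all of them, and a precipitate made without the Cpeb4 antibody was not analysed here.

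Cardiac myosin is the motor of the thick filament, and its heavy chain carries the ATPase and the actin-binding site. The alpha chain has the faster ATPase and the beta chain the slower and more economical one. In rodent ventricles Myh7 prevails before birth and Myh6 takes over after it as thyroid hormone rises, and a return towards Myh7 is a classic marker of hypertrophic growth. Newborn ventricular myocytes are therefore cells in which both genes are in use. In the RefSeq annotation of the GRCr8 assembly the genes are neighbours on chromosome 15, with 0 annotated genes lying wholly between them. Each hosts a microRNA of the miR-208 family, and these are shown because they mark the kinship of the loci in a stretch short enough to read. The mature 3p sequences from RefSeq, 5′ to 3′ with the seed (bases 2 to 8) in capitals, are given for the minus strand of GRCr8.
miR-208a-3p, inside Myh6, chr15:32395568-32395585: aUAAGACGagcaaaaagc
miR-208b-3p, inside Myh7, chr15:32421648-32421665: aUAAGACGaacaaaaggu
Both share the seed UAAGACG. Over 18 positions, counted from 1 at the 5′ end, miR-208b-3p differed from miR-208a-3p by G10A, A16G and C18U. These libraries count polyadenylated 3′ ends and do not measure the microRNAs.

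The libraries held between 1423334 and 30216559 counts, 21.2-fold apart, and the pair itself had between 2749 and 356114 counts in a library. At such counts the error of counting was small beside the spread between libraries. Some libraries stood apart. For each library, genes were taken that averaged 5 to 10 CPM (counts brought to the same library total) in other libraries of its RNA type. Mock replicate 2 and PE replicate 1 were left out of that average for every library. Of these genes, 48.5% had 0 counts in IP of mock replicate 2, 14.7% in input of mock replicate 2 and 13.3% in input of PE replicate 1. IP of PE replicate 1, with 14.4%, lay within the 4.16% to 16.7% of the other 4 precipitates, and the other 4 inputs had 0.168% to 3.03%. Results are given with and without mock replicate 2 and PE replicate 1. The labels do not say whether replicates came from separate cultures, and a p-value here describes the spread of these libraries alone, which may be technical. The deposited table does not pair identifiers with gene symbols, so other cardiomyocyte or non-myocyte markers were not checked. Myh6 and Myh7 are themselves defining cardiomyocyte genes, and by mean CPM over the 12 libraries they ranked 77 and 28 among the 10491 genes tested. In the inputs alone Myh6 ranked 50 in mock replicate 2, 77 in PE replicate 1 and from 136 to 177 in the other 4. Myh7 ranked from 21 to 69 in the inputs.

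Myh7 had more counts than Myh6 in all 12 libraries, from 1.57-fold in input of mock replicate 2 to 4.13-fold in input of PE replicate 3. Since the libraries read transcript ends, a count does not grow with transcript length, and the 2 genes can be set side by side without a length correction, although capture at the 2 ends may differ. The coding sequences of both genes are close relatives, and in the GRCr8 annotation Myh7 also overlaps 1 long noncoding and 1 other protein-coding gene and Myh6 1 long noncoding gene. How reads matching more than 1 gene were counted, and whether strand was used, is not given in the sources used here, so counts may have been exchanged between them, and the size of this was not tested.

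Scaled by TMM, which sets a typical gene equal between libraries, Myh7 averaged 4339 ± 1378 CPM in IP PE, 4866 ± 1572 CPM in IP mock, 4055 ± 1558 CPM in input PE and 3365 ± 1194 CPM in input mock (SD, n = 3 each). IP mock was the highest, before IP PE, input PE and input mock, and each step in this order was smaller than the SD of either neighbour. Myh6 averaged 1384 ± 489 CPM in IP PE, 2227 ± 1657 CPM in IP mock, 1057 ± 505 CPM in input PE and 1601 ± 1219 CPM in input mock (SD, n = 3 each). Its order was IP mock, input mock, IP PE and input PE, and neighbours in it also lay within 1 SD of each other. The high SDs of Myh6 in mock cells came from replicate 2, as the levels by library show. In IP of mock replicate 2 Myh6 stood 3.25-fold above the mean of the other 2 libraries of its group, and in input of mock replicate 2 3.35-fold. For Myh7 the same libraries stood 1.68-fold and 1.77-fold above theirs.

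**Figure D1:**
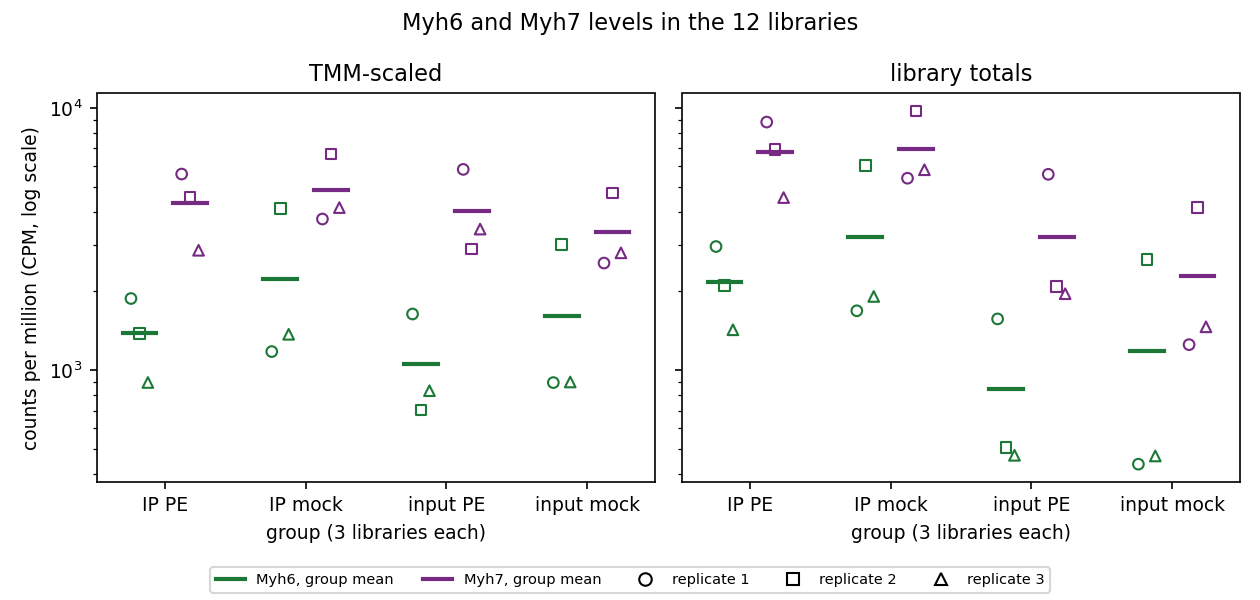
Levels of Myh6 and Myh7 in CPM (log axis), TMM-scaled on the left and per library total on the right, in IP and input of PE and mock cells. Points are libraries, with symbols for the replicate number, and bars are group means (n = 3); Myh7 lies above Myh6 in every library, and mock replicate 2 is the highest mock library for both genes in both RNA types.

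In the input, the total RNA of the cells, the PE and the mock libraries overlapped for both genes. Myh7, the chain that marks hypertrophic growth, had 5825, 2892 and 3448 CPM in PE input replicates 1, 2 and 3, against 2559, 4737 and 2799 CPM in mock input replicates 1, 2 and 3. All 3 PE libraries lay above mock replicates 1 and 3, but only replicate 1 lay above mock replicate 2, so the groups overlapped. The fitted log2 fold change of PE against mock was 0.27 (SE 0.35, adjusted p = 1 by edgeR's quasi-likelihood test). Myh6 had 1636, 703 and 834 CPM in PE input, against 895, 3009 and 900 CPM in mock input. Here PE replicates 2 and 3 lay below every mock library and PE replicate 1 within the mock range, and the log2 fold change was -0.60 (SE 0.57, adjusted p = 1 by edgeR). In total RNA, fewer myocytes among the cells and less myosin RNA per myocyte cannot be told apart.

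Of the pair, 0 genes passed an adjusted p under 0.05 for PE against mock in input, where 0.00953% of all genes tested did. At an unadjusted p under 0.05 the pair again gave 0, where 3.57% of all genes passed. Both directions rested on single libraries. Without input mock replicate 2 the log2 fold change of Myh6 was 0.24 (SE 0.53), and without input PE replicate 1 that of Myh7 was -0.09 (SE 0.36). With mock replicate 2 and PE replicate 1 left out of both RNA types, Myh7 stood at 0.23 (SE 0.23) and Myh6 at -0.24 (SE 0.24).

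In the Cpeb4 precipitates the pair showed no shift with PE beyond the spread either. Myh7 had 5592, 4564 and 2863 CPM in PE IP replicates 1, 2 and 3, against 3767, 6666 and 4164 CPM in mock IP replicates 1, 2 and 3. The lowest of the 6 was a PE library and the highest mock replicate 2, and the groups overlapped throughout. Its log2 fold change was -0.17 (SE 0.35, adjusted p = 1 by edgeR). For Myh6 the precipitates held 1874, 1380 and 896 CPM in PE cells, against 1176, 4137 and 1369 CPM in mock cells. All 3 PE libraries lay below mock replicate 2, and they lay on both sides of the other mock libraries. The log2 fold change of Myh6 was -0.69 (SE 0.57, adjusted p = 1 by edgeR).

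In these precipitates 0 of the pair passed, where 0.00953% of all genes tested did, and 0 had an unadjusted p under 0.05, where 5.54% did. Without IP mock replicate 2 the log2 fold changes were 0.12 (SE 0.52) for Myh6 and 0.13 (SE 0.35) for Myh7, and without IP PE replicate 3 that of Myh7 was 0.06 (SE 0.37). With mock replicate 2 and PE replicate 1 left out they were -0.16 (SE 0.24) and -0.10 (SE 0.23).

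Cpeb4 precipitate and input were compared within each treatment. In PE cells the Myh7 values already given had an IP range of 2863 to 5592 CPM, against 2892 to 5825 CPM in input, so the ranges nearly coincided. The log2 fold change of IP against input was 0.10 (SE 0.35, adjusted p = 0.990 by edgeR). Myh6 ranged from 896 to 1874 CPM in PE IP, against 703 to 1636 CPM in PE input, with a log2 fold change at 0.39 (SE 0.57, adjusted p = 0.943 by edgeR). In mock cells Myh7 ranged from 3767 to 6666 CPM in IP, against 2559 to 4737 CPM in input. The lower 2 IP libraries lay above the lower 2 inputs and below input replicate 2, and the log2 fold change was 0.53 (SE 0.35, adjusted p = 0.664 by edgeR). Myh6 in mock cells ranged from 1176 to 4137 CPM in IP, against 895 to 3009 CPM in input, with a log2 fold change at 0.47 (SE 0.57, adjusted p = 0.909 by edgeR).

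Of the pair, 0 genes passed for IP against input in either treatment, where 2.11% of all genes tested did in PE cells and 0.743% in mock cells. Unadjusted p-values under 0.05 were likewise 0 for the pair, against 11.7% and 10.8% of all genes. Their fold changes were ranked among those of all genes. In PE cells Myh6 stood at percentile 57.1 and Myh7 at 47.3, and in mock cells at 62.8 and 64.7. The direction of Myh6 in mock cells turned without IP mock replicate 2 (log2 fold change -0.33, SE 0.53). That of Myh7 in PE cells turned without IP PE replicate 1 (-0.13, SE 0.38), input PE replicate 2 (-0.10, SE 0.38) or input PE replicate 3 (-0.0056, SE 0.39). Without mock replicate 2 and PE replicate 1, Myh6 was at 0.54 (SE 0.24, adjusted p = 0.213 by edgeR) in PE cells and Myh7 at 0.53 (SE 0.23, adjusted p = 0.263 by edgeR) in mock cells. These 2 values had an unadjusted p under 0.05 (0.0406 and 0.0370), as did 20.9% of all genes tested in PE cells and 16.1% in mock cells in that fit. Without input mock replicate 2 alone, Myh6 in mock cells was at 1.31 (SE 0.55, adjusted p = 0.364 by edgeR). Myh7 was then at 0.86 (SE 0.38, adjusted p = 0.398 by edgeR). Both had an unadjusted p under 0.05, but the share of all genes with one was not counted in that fit. It also kept the IP of mock replicate 2, so it is not read as a result about the pair.

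In mock cells IP and input libraries of the same number deviated together, and the numbers were taken as pairs there. Myh7 was higher in IP than in input in each of the 3 mock pairs, 1.47-fold, 1.41-fold and 1.49-fold in replicates 1, 2 and 3. Myh6 was likewise higher in each pair, 1.31-fold, 1.37-fold and 1.52-fold. Replicate 2 thus did not stand apart in these folds, although it was the highest mock library in both RNA types. With a replicate block the log2 fold change was 0.54 (SE 0.22, unadjusted p = 0.0307, adjusted p = 0.307 by edgeR) for Myh7 and 0.49 (SE 0.23, unadjusted p = 0.0534, adjusted p = 0.414 by edgeR) for Myh6. In that fit 0 of the pair passed after adjustment, where 2.59% of all genes tested did, and Myh7 alone had an unadjusted p under 0.05, where 12.4% of all genes did. With both mock replicate 2 libraries left out together, Myh6 stayed positive at 0.50 (SE 0.40) and Myh7 at 0.56 (SE 0.36). The turn of sign of Myh6 thus appeared when the IP of that pair was left out and its input kept. By number in PE cells, IP over input was 1.15-fold, 1.96-fold and 1.07-fold for Myh6 in replicates 1, 2 and 3. For Myh7 it was 0.96-fold, 1.58-fold and 0.83-fold. With a replicate block Myh6 in PE cells was at 0.42 (SE 0.23, unadjusted p = 0.0885, adjusted p = 0.490 by edgeR). Myh7 in PE cells was then at 0.11 (SE 0.22, adjusted p = 0.926 by edgeR).

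The composition of IP and input libraries differed, with TMM factors of 1.40 to 1.59 in the 6 IP libraries and 0.489 to 0.959 in the 6 inputs, so the choice of scaling moves every gene. Divided by library totals alone, the middle fold change over all genes, in log2, was raised by 1.09 in PE cells and by 1.21 in mock cells over the TMM value. On that scale Myh7 held 8827, 6947 and 4547 CPM in PE IP, against 5579, 2088 and 1955 CPM in PE input, with the input of replicate 1 above the IP of replicate 3. Of all genes tested, 37.3% had every PE IP above every PE input. In mock cells Myh7 held 5390, 9715 and 5807 CPM in IP, against 1250, 4163 and 1461 CPM in input, so that every IP library lay above every input. Of all genes tested, 33% were likewise without overlap and higher in mock IP. The log2 fold change of Myh7 by library totals was 1.08 (SE 0.49, unadjusted p = 0.0420, adjusted p = 0.192 by edgeR) in PE cells and 1.61 (SE 0.50, unadjusted p = 0.00490, adjusted p = 0.0541 by edgeR) in mock cells. For Myh6 it was 1.35 (SE 0.73) and 1.44 (SE 0.73), with adjusted p = 0.278 and 0.212 by edgeR. Thus 0 of the pair passed as higher in IP by library totals, where 6.11% of all genes did in PE cells and 8.03% in mock cells. Relative to the median gene of the same scaling, these changes came to -0.19 for Myh7 and 0.08 for Myh6 in PE cells, and to 0.29 for Myh7 and 0.12 for Myh6 in mock cells. By library totals these distances from the median gene were smaller than the SE of each fold change.

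The difference of IP against input between PE and mock cells was -0.43 (SE 0.49) for Myh7 and -0.09 (SE 0.81) for Myh6 on the log2 scale. In this test 0 of the pair and 0% of all genes tested passed (adjusted p = 1.00 by edgeR for both), and at an unadjusted p under 0.05 0 of the pair passed, where 2.58% of all genes did. An interval of 1.96 SE around the estimate ran from -1.40 to 0.53 for Myh7 and from -1.67 to 1.49 for Myh6. The sign of the Myh6 value turned without IP PE replicate 3 (0.14), IP mock replicate 2 (0.72), input PE replicate 1 (0.39), input mock replicate 1 (0.20) or input mock replicate 3 (0.19), and was 0.07 without mock replicate 2 and PE replicate 1. The Myh7 value kept its sign and ran from -0.77 without input mock replicate 2 to -0.07 without input PE replicate 1. The DESeq2 Wald test also passed 0 of the pair in each of the 5 comparisons. Of all genes tested it passed 0.2% for PE against mock in input, 0.391% for PE against mock in IP, 5.56% for IP against input in PE cells, 3.88% for IP against input in mock cells and 0.0191% for the difference between them. At an unadjusted p under 0.05 it gave 0 of the pair, where between 3.61% and 14.1% of all genes passed in these comparisons.

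**Figure D2:**
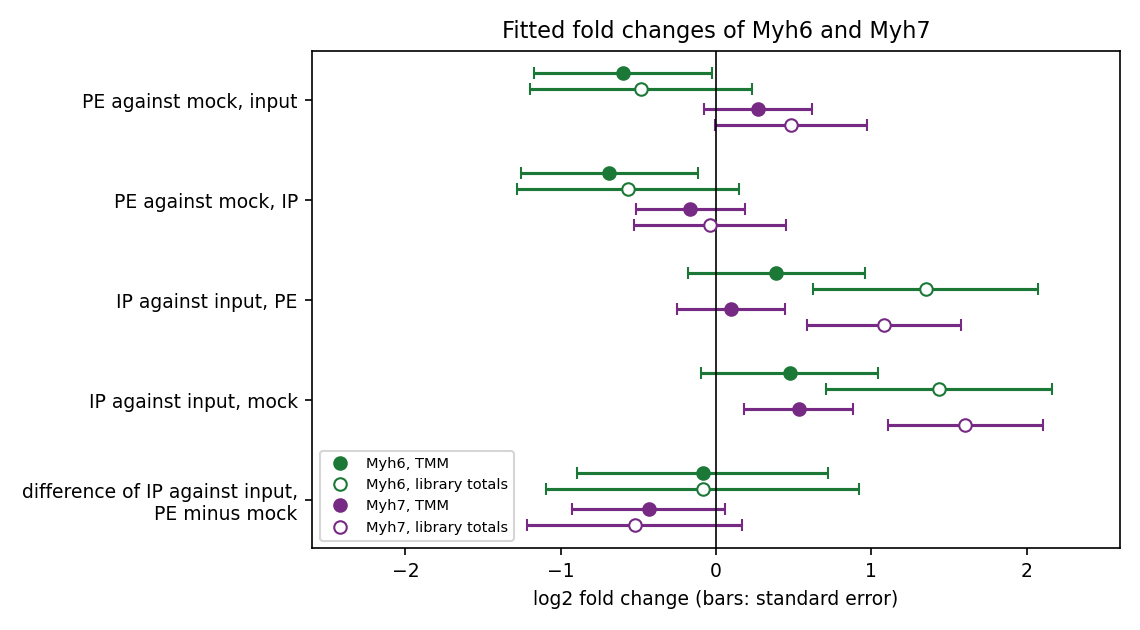
Fitted log2 fold changes (horizontal axis) of Myh6 and Myh7 in the 5 comparisons, with TMM scaling as filled points and library totals as open points; bars are standard errors. The comparisons of IP with input lie between 0.10 and 0.53 with TMM and between 1.08 and 1.61 with library totals.

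The share of Myh7 in the counts of the pair needs no scaling between libraries. It describes the balance of the RNAs of slow and fast chain, not of the proteins, and counts exchanged between the 2 genes could move it. It was tested by two-sided exact permutation of the difference in group means, in a family of 6 tests, and 3 libraries against 3 cannot go below p = 0.1. In input of PE cells Myh7 held 78.1%, 80.4% and 80.5% of the pair in replicates 1, 2 and 3. In input of mock cells it held 74.1%, 61.2% and 75.7%. Every PE input thus lay above every mock input. The Wilson 95% intervals of counting error did not bridge the groups, with the nearest bounds at 77.7% in PE replicate 1 and 77.2% in mock replicate 3. These intervals take every count as independent, which was not tested, so they can be too narrow. The means were 79.7% ± 1.39 in PE input and 70.3% ± 7.96 in mock input (SD, n = 3 each), a difference of 9.38 percentage points (exact permutation p = 0.1, the smallest possible, adjusted 0.2). Mock replicate 2 made up much of this difference. Without it the difference was 4.81 points, and PE and mock input still did not overlap (exact permutation p = 0.1, adjusted 0.2). Without mock replicate 2 and PE replicate 1 it was 5.62 points (exact permutation p = 0.333, adjusted 0.5).

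In the precipitates the groups overlapped. Myh7 held 74.9%, 76.8% and 76.2% of the pair in PE IP, against 76.2%, 61.7% and 75.3% in mock IP. Apart from mock replicate 2 these 5 values fell within 74.9% to 76.8%, and PE and mock libraries were interleaved. The means were 75.9% ± 0.957 in PE IP and 71.1% ± 8.11 in mock IP (SD, n = 3 each), a difference of 4.88 points (exact permutation p = 0.5, adjusted 0.6). Without IP mock replicate 2 the difference was 0.206 points, and without mock replicate 2 and PE replicate 1 it was 0.728 points. Over both RNA types, with labels permuted within each, the Myh7 share was 7.13 points higher in PE than in mock cells (exact permutation p = 0.025, adjusted 0.15), which did not pass after adjustment. This test counts IP and input libraries of the same number as independent, although in mock cells they deviated together. Its p-values can therefore be too small, and no conclusion is drawn from them. With mock replicate 2 left out of both RNA types, chosen after seeing the data, the value was 2.51 points (exact permutation p = 0.08, adjusted 0.2). Without mock replicate 2 and PE replicate 1 it was 3.17 points (exact permutation p = 0.111, adjusted 0.5).

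Set against their inputs, the PE precipitates held the smaller share of Myh7. The 3 IP libraries of PE cells, at 74.9% to 76.8%, all lay below the 3 inputs of PE cells, at 78.1% to 80.5%. The difference was -3.74 points (exact permutation p = 0.1, the smallest possible, adjusted 0.2), and it was -4.02 points without PE replicate 1. In mock cells IP and input held nearly the same share, at 71.1% ± 8.11 and 70.3% ± 7.96 (SD, n = 3 each). That difference was 0.762 points (exact permutation p = 0.6, adjusted 0.6), and 0.869 points without mock replicate 2 of both RNA types. Its sign turned when 1 library alone was left out, at -1.81 points without IP mock replicate 1, -1.34 without IP mock replicate 3 and -3.81 without input mock replicate 2. By pairs, IP minus input was 2.14, 0.549 and -0.398 points in mock replicates 1, 2 and 3. By number in PE cells it was -3.18, -3.67 and -4.37 points in replicates 1, 2 and 3. Over both treatments IP differed from input by -1.49 points (exact permutation p = 0.495, adjusted 0.6), and by 0.851 points without IP mock replicate 2. With mock replicate 2 left out of both RNA types the difference was -1.43 points. Without mock replicate 2 and PE replicate 1 it was -1.57 points. Whether PE altered the IP effect on the share was not tested.

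**Figure D3:**
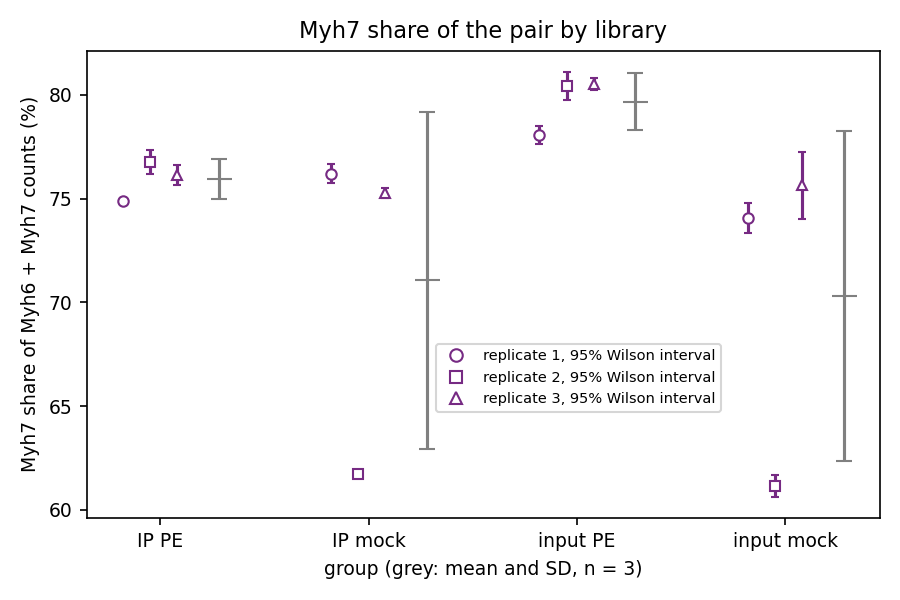
Myh7 counts as a percentage of Myh6 plus Myh7 counts in each library (vertical axis, which does not start at 0), with Wilson 95% intervals for counting error; grey bars are the group mean and SD (n = 3). PE input lies between 78.1% and 80.5%, above all 9 other libraries, and mock replicate 2 lies at 61.7% in IP and 61.2% in input.

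Mock replicate 2 had the lowest Myh7 share in both of its libraries, 61.7% in IP and 61.2% in input, against 74.1% to 80.5% in the other 10 libraries. The 2 libraries with this number thus had a similar composition of the pair, although IP and input of that number differ in the share of genes missing. Both were also among the libraries that lacked many genes, and the part of that in their shares was not tested. PE replicate 1 had the highest level of both genes within each of its groups. Its Myh7 share was the lowest of its group in IP and in input, within a range of 1.88 and 2.45 percentage points.

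The genes most like each member were sought by the root mean square difference of log2 CPM, each centred on its mean over the 12 libraries, among genes of at least 10 CPM. For Myh6 the nearest were ENSRNOG00000019629 at 0.20 and ENSRNOG00000018090 at 0.21 on the log2 scale, and for Myh7 ENSRNOG00000003029 and ENSRNOG00000014058, both at 0.20. No names are given, since the sources used here do not annotate these identifiers. The median gene lay at 1.14 from Myh6 and at 0.94 from Myh7. Myh6 and Myh7 were 0.43 from each other, so that Myh7 was the 59th nearest of 5864 genes to Myh6, and Myh6 the 265th nearest to Myh7. The profiles of the 2 chains across libraries were thus closer to each other than those of most genes were to either, as a description of 12 libraries that differ in depth and RNA type. Myh6 averaged 1567 CPM and Myh7 4156 CPM, far above the limit of 10 CPM. Among genes at 20 to 50 CPM, 12.6% had 0 counts in IP of mock replicate 2. The part of level and missing genes in these distances was not tested.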

How the data were processed

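The authors deposited 1 table of raw counts per gene, without normalization, with 1 column per library. Per the submitters' processing notes, cutadapt 2.5, STAR 2.7, featureCounts 1.6.4, DESeq2 and the build Rnor_6.0 were used, with options not given in the sources used here. Per the labels' protocols, a 3′ end kit was used on 200 ng of RNA. The 32883 blank lines were skipped, and 0 columns were left out. The 2 members, the tests and the alternatives were chosen with earlier results of these data known.

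Counts were fitted in edgeR 4.0.16 (R 4.3.3) with TMM factors, filterByExpr, 4 group means over 12 libraries, robust quasi-likelihood F-tests and Benjamini-Hochberg adjustment over 10491 genes. An SE is the log2 fold change divided by the square root of F. Shares were tested by exact permutation (Python 3.11.15), adjusted over 6 tests. Alternatives were other scalings, no filter, DESeq2 1.42.0, subsets of libraries and replicate blocks. Same-number IP and input libraries were checked for deviating together over 5865 genes. In mock cells r was 0.24, 0.27 and 0.18, and the numbers were taken as pairs. In PE cells r was 0.27, 0.02 and 0.31, and they were not, because of replicate 2. The column names give IP and input the same letter and number in PE cells as in mock cells. A low r of 1 pair does not show that the PE libraries were unpaired, so values by number are given there too. The fits were tested on simulated data. No 2 libraries of a group agreed within sampling noise (lowest chi-square per degree of freedom 7.79). The planned lists of other myosin, thick filament, regulator and marker genes were not run, since the reference table of 47357 genes carries 0 Ensembl identifiers. The names Myh6 and Myh7 rest on the identifiers that define the pair. No gene was named for a change. The rule for like genes took the 3 nearest, and 2 per member are printed.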

Additional observations from a re-analysis of the deposited data

How the results depend on the processing

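Alternatives to the fits of Myh6 and Myh7 were DESeq2 size factors, library totals, no filter, the DESeq2 Wald test, the 6 libraries of a comparison, a replicate block, leaving out each library, leaving out both mock replicate 2 libraries and leaving out 4 libraries (mock replicate 2 and PE replicate 1 of IP and input). In 198 such refits of 10 results, 0 passed an adjusted p under 0.05. The lowest was 0.0541, for Myh7 in IP against input of mock cells by library totals. Direction was kept in 180 and reversed in 18, of which 14 left out a single library, 1 left out the 4 libraries (0.071 for the Myh6 difference of IP against input between PE and mock) and 3 left out both mock replicate 2 libraries (PE against mock, at 0.24 for Myh6 in input, and at 0.12 for Myh6 and 0.13 for Myh7 in IP). With single libraries left out, the log2 fold changes of PE against mock ran from -1.07 to 0.24 (Myh6) and from -0.090 to 0.60 (Myh7) in input, and from -0.995 to 0.12 and from -0.39 to 0.13 in IP. IP against input ran from 0.11 to 0.83 (Myh6) and from -0.13 to 0.43 (Myh7) in PE cells, and from -0.33 to 1.31 and from 0.24 to 0.86 in mock cells. The difference of these between treatments ran from -0.93 to 0.72 for Myh6 and from -0.77 to -0.071 for Myh7. Of the shares, IP against input ran from -3.81 to 5.44 points in mock cells and from -3.77 to 0.85 points over both treatments. The other share differences kept their sign. PE against mock ran from 4.81 to 12.1 points in input, from 0.21 to 7.46 in IP and from 4.79 to 8.47 over both RNA types. IP against input in PE cells ran from -4.54 to -3.22 points. What caused these moves was not tested. No share test passed after adjustment under any alternative run. The lowest adjusted p was 0.06 by exact permutation (PE against mock over both RNA types, without IP mock replicate 1). That test also counts IP and input libraries of the same number as independent. Share tests within 1 RNA type or 1 treatment could not have passed, since exact permutation of 3 libraries against 3 cannot go below p = 0.1. No conclusion about an unchanged share is drawn from their failure to pass.

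Over both treatments 9 of 12 libraries matched their own number best. A replicate block gave 421 genes against 221 without it for IP against input in PE cells, where r was low in replicate 2. In mock cells it gave 272 against 78. It changed no call of the pair. For PE against mock over both RNA types, a sign-flip test of the share, pairing PE and mock libraries by number, gave an exact p of 0.0938 (adjusted 0.375). Deviations of same-number PE and mock libraries had r of -0.20, 0.05 and 0.25 in IP and -0.31, -0.31 and 0.24 in input. These numbers were not taken as pairs, and no conclusion is drawn from that test. Leaving out mock replicate 2 of IP and input together was chosen after seeing the data. The fit on a comparison's own libraries is the reported fit for the difference between treatments. At 3 libraries a group, SEs of 0.35 (Myh7) and 0.57 (Myh6) set what could be detected.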
